A study of Mus musculus with 20 samples.

Results

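Mab21l2 and Mab21l1 are small genes on mouse chromosome 3 that each lie inside a much longer gene, Mab21l2 within Lrba and Mab21l1 within Nbea. The H3K27ac peaks described here are those that overlapped Lrba or Nbea or lay within 50 kb of either, in peak lists of the developing mouse face. The genes were chosen by the width of the peaks over Mab21l2, which were among the widest of several libraries, so peak widths and positions, and the coverage of the windows that hold the Mab21l genes, are given as a description with no test. The 2 windows held 109 of the 144852 peaks in the lists, 71 at Lrba and 38 at Nbea. Merged over libraries, these peaks made 30 of the 42346 regions of the whole series, 19 at Lrba and 11 at Nbea.

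H3K27ac is an acetylated histone found at active promoters and active enhancers, and a broad stretch of it is common around developmental regulators that are in use. Mab21l1 and Mab21l2 encode vertebrate relatives of the Caenorhabditis elegans protein mab-21 and are known for their roles in eye and facial development, with expression in the eye, midbrain, limbs and pharyngeal arches. LRBA and neurobeachin, the product of Nbea, are large BEACH domain proteins that act in vesicle traffic, LRBA in the handling of CTLA4 in immune cells and neurobeachin at neuronal synapses.

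The libraries came from dissected parts of the face of wild-type embryos, in bulk with mixed cell types, and each tissue had 1 library per stage. At e11.5 the face was divided into medial and lateral nasal plates and maxillary and mandibular processes, and at e13.5 into nose, maxillary process and mandibular process. At e15.5 the labels name the same 3 tissues as at e13.5, but the names of the peaks in those lists give other tissues than the labels, so these libraries are called by their label and were kept out of the main comparison of regions. The mandibular and maxillary processes of e11.5 and e13.5 (n = 4) are called jaw below, and the nasal plates and the e13.5 nose (n = 3) are called nasal. A tissue with fewer acetylating cells and one with less acetylation per cell cannot be told apart in such bulk samples.

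The lists were of unequal length. The 4 jaw libraries held 6571 to 10753 peaks and the 3 nasal libraries 20492 to 25941, while the e15.5 lists held 7728 to 19817, and the read depth behind them was unknown. The starts of the facial mesenchyme genes Twist1, Prrx1, Msx1 and Pdgfra lay under a peak in all 10 libraries, and those of the eye genes Rax and Pax6 in none. The same was true of the endothelial genes Cdh5 and Pecam1, the muscle genes Myod1 and Myf5, the liver genes Alb and Afp and the epithelial gene Trp63, whereas the start of Krt5 was under a peak in 3 libraries, of En1 in 2 and of Emx2 in 8. These starts are the 5′ ends of the gene records, and other starts of the same genes, Trp63 among them, were not scored. Hand2, a gene of the mandibular process, had a peak at its start in both mandibular libraries of e11.5 and e13.5 and, at e15.5, in the library labelled maxillary process and not in that labelled mandibular process. Pax7, a frontonasal gene, had one in the 3 nasal libraries and in the e15.5 library labelled mandibular process. At e15.5 the Hand2 and Pax7 peaks thus did not follow the labels, and whether label or peak name is right was not settled. The other marker of each kind was less specific, with a peak at the Dlx5 start in 3 jaw, 2 nasal and 2 libraries of e15.5, the one labelled mandibular process among them, and at the Alx1 start in 3 jaw, all 3 nasal and all 3 libraries of e15.5.

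Both pairs have the same layout in GENCODE vM21 (mm10). Lrba (ENSMUSG00000028080.16) lies at chr3:86224680-86782692 on the plus strand and is 558 kb long, and Mab21l2 (ENSMUSG00000057777.4) at chr3:86545581-86548629 on the minus strand. Mab21l2 is in intron 40 of the 57-exon transcript Lrba-201, an intron of 63158 bp, and starts 324 kb from the Lrba start. Nbea (ENSMUSG00000027799.12) lies at chr3:55625195-56183701 on the minus strand and is 559 kb long, and Mab21l1 (ENSMUSG00000056947.5) at chr3:55782510-55785001 on the plus strand. Mab21l1 is in intron 41 of the 58-exon transcript Nbea-201, an intron of 62791 bp, and starts 401 kb from the Nbea start. Both Mab21l genes have a single exon and run against their host. Distances are from the 5′ end of the gene record, which for Mab21l2 belongs to a transcript annotated as a processed pseudogene, the protein-coding one starting at 86548283. Shorter host transcripts also start near the Mab21l genes. The protein-coding transcript Lrba-206 starts at 86548216 and the retained-intron transcript Lrba-205 at 86546755, both within Mab21l2 and on the opposite strand. The retained-intron transcript Nbea-203 starts at 55783490, within Mab21l1 and on the opposite strand, and 2 more Nbea transcripts not annotated as protein-coding start at 55786902 and 55787945, past the 3′ end of Mab21l1. Below, the Lrba start and the Nbea start are the 5′ ends of the gene records. RefSeq adds a long non-coding RNA, Gm31677 (chr3:86531509-86551597, minus strand), that spans Mab21l2. No other protein-coding gene starts in either window. Dclk2, a doublecortin-like kinase gene, reaches into the Lrba window from the side of the Lrba 3′ end.

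The sequences below, from the RefSeq promoter table (GRCm38.p6) and the GRCm38 genome, show the DNA before 2 of the starts and under the recurrent regions outside the Mab21l genes. RefSeq promoter sequence was matched for 3 of the 4 genes. That of Mab21l2 covers chr3:86548284-86548533 (minus strand) and that of Nbea chr3:56183749-56183951 (minus strand, without the bases in annotated exons). The Mab21l2 stretch lay under a peak in all 10 libraries, and the Nbea stretch wholly so in the e13.5 nose only. For Lrba none is printed because the window is exonic in a RefSeq transcript. Each of the 5 regions is shown as the middle 300 bases of the stretch under peaks of most libraries (plus strand) and is named by the distance of its centre from the start of its host. They were those outside the Mab21l genes and the host starts that lay under a peak in 6 or more libraries, or in all 3 nasal and none of the 4 jaw libraries, with at least 300 such bases. The Lrba 308 kb region is read at chr3:86532303-86532602, the Lrba 535 kb region at chr3:86761120-86761419, the Lrba 551 kb region at chr3:86774950-86775249, the Nbea 571 kb region at chr3:55612879-55613178 and the Nbea 595 kb region at chr3:55587963-55588262. Capitals mark matches on either strand to 9 short motifs, and no matches overlapped. The motifs were the homeodomain core TAATTA, the E-box CAGATG, the AP-1 motif TGANTCA, the AP-2 motif GCCNNNGGC, the forkhead motif TGTTTAC, the Sox and TCF motif AACAAAG, the GC box GGGCGG, the CCAAT box and the TATA box TATAAA.
Mab21l2 promoter: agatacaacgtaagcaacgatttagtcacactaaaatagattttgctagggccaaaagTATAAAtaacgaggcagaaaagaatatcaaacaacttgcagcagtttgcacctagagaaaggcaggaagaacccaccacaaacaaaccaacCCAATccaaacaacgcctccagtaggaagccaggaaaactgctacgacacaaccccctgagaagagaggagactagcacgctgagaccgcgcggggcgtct
Nbea promoter: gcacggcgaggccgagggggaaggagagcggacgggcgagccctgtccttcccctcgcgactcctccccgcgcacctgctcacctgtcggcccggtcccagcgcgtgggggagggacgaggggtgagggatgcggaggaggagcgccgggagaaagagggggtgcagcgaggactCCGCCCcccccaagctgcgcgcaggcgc
Lrba 308 kb region: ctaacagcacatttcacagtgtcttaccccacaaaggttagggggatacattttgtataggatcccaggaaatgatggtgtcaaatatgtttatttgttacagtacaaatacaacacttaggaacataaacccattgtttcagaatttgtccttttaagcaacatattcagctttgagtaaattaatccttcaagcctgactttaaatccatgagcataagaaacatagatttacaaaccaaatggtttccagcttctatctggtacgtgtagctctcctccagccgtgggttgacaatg
Lrba 535 kb region: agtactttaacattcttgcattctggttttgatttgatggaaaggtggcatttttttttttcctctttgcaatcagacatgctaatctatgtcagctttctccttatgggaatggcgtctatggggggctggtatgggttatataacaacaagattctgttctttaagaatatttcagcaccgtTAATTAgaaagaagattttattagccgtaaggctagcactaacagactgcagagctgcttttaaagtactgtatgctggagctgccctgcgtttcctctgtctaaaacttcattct
Lrba 551 kb region: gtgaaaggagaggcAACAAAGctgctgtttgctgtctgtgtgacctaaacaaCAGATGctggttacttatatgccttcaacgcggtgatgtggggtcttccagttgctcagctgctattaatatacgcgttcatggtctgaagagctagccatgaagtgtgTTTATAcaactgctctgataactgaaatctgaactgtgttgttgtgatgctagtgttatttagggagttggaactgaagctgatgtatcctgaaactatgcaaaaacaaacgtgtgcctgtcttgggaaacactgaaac
Nbea 571 kb region: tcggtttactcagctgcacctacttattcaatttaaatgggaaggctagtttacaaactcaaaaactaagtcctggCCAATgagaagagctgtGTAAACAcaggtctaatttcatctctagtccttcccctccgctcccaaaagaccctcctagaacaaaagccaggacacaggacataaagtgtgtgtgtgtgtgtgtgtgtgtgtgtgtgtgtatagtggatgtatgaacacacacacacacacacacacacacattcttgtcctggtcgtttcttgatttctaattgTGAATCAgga
Nbea 595 kb region: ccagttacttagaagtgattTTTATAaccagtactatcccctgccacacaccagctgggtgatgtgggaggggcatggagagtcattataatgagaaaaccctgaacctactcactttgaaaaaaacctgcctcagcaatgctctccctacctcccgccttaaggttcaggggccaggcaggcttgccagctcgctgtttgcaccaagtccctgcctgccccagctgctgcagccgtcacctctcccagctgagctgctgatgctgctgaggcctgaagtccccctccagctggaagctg

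The 2 promoters differed in base composition, with 46.8% G and C in the 250 bases before the protein-coding Mab21l2 start and 75.4% in the 203 bases shown for Nbea. The Mab21l2 promoter held 1 TATAAA, found in 12.4% of 32841 RefSeq promoters, and 1 CCAAT, found in 33.9%, and the Nbea promoter held 1 GGGCGG, found in 25.2% of promoters cut to the same stretch. Among the regions, the Lrba 308 kb region matched none of the 9 motifs and the Lrba 535 kb region held 1 TAATTA, found in 5.60% of the middle 300 bases of 38698 regions of the series. The Lrba 551 kb region held CAGATG (21.8% of regions), AACAAAG (9.0%) and TATAAA (11.9%), and the Nbea 571 kb region held TGANTCA (8.02%), TGTTTAC (4.20%) and CCAAT (28.8%). The Nbea 595 kb region held TATAAA. These matches are a description of the letters.

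Mab21l2 lay under a peak in all 10 libraries. At e11.5 the peak over the gene was 12.4 kb wide in the mandibular process, 14.6 kb in the maxillary process, 3.40 kb in the medial nasal plate and 7.04 kb in the lateral nasal plate. At e13.5 it was 14.8 kb wide in the mandibular process, 17.2 kb in the maxillary process and 6.36 kb in the nose. At e15.5 it was 6.03 kb wide in the library labelled mandibular process, 18.2 kb in that labelled maxillary process and 6.71 kb in that labelled nose. The 4 jaw libraries and the e15.5 library labelled maxillary process thus had peaks over 12 kb and the other 5 had peaks of at most 7.04 kb. By width it ranked 3rd of 6571 peaks in the e11.5 maxillary process, 2nd of 6887 in the e13.5 mandibular process, 4th of 10753 in the e13.5 maxillary process and 5th of 16572 in the e15.5 library labelled maxillary process. In the e11.5 medial nasal plate it ranked 1521st of 20492. By q-value the same peaks were placed lower, from the top 3.49% of the list in the e11.5 maxillary process to the top 72.1% in the e15.5 library labelled mandibular process.

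The widest of these stretches ran past the gene on both sides. In the jaw libraries the Mab21l2 peak reached 4.30 to 7.68 kb upstream of the start and 7.90 to 10.4 kb downstream of it, over the 3.05 kb gene and past it into the neighbouring Lrba exon at chr3:86542575-86542711. In the nasal libraries it reached 0.650 to 3.38 kb upstream and 2.74 to 6.34 kb downstream. In all 3 nasal libraries a further peak stood less than 1 kb upstream of it, and with such peaks joined the domain was 4.82 kb wide in the medial nasal plate, 10.8 kb in the lateral nasal plate and 7.07 kb in the e13.5 nose, still below the 12.4 kb of the narrowest jaw domain. The bases covered in all 10 libraries were 2 stretches, chr3:86546209-86549279 (3071 bp), which holds the printed promoter, the Lrba-205 and Lrba-206 starts, an exon of Gm31677 and 2421 bp of the gene, and chr3:86549778-86550708 (931 bp) upstream of the start. The Gm31677 start lies further upstream, within the merged Mab21l2 region but not in either stretch.

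Mab21l1 also lay under a peak in all 10 libraries, and its peaks were narrower than those of Mab21l2 at their widest. At e11.5 the peak was 10.3 kb wide in the mandibular process, 10.2 kb in the maxillary process, 2.40 kb in the medial nasal plate and 5.92 kb in the lateral nasal plate. At e13.5 it was 11.2 kb wide in the mandibular process, 12.7 kb in the maxillary process and 7.64 kb in the nose. At e15.5 the libraries labelled mandibular process, maxillary process and nose had peaks of 10969, 12493 and 9484 bp. The 4 jaw libraries and the 3 libraries of e15.5 were thus all above the 3 nasal ones. Its width rank was 11 to 47 in those 7 libraries, 188 in the e13.5 nose, 4250 in the medial nasal plate and 176 in the lateral one. The e15.5 library labelled mandibular process had a wide peak over Mab21l1 and a narrow one over Mab21l2, with width ranks of 47 and 404 of 19817.

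The Mab21l1 peak was shifted towards the 3′ side of the gene. It reached 7.15 to 8.19 kb downstream of the start in the jaw libraries and 2.08 to 6.77 kb in the nasal ones, against 2.53 to 4.47 kb and 0.319 to 0.871 kb upstream. With peaks within 1 kb joined, the domain was 5.73 kb wide in the medial nasal plate and 10.3 kb in the e13.5 nose, so that the nose then lay within the jaw range of 10.2 to 12.7 kb. The 2 stretches covered in all 10 libraries were chr3:55782191-55784588 (2398 bp), over the start, the Nbea-203 start and 2079 bp of the gene, and chr3:55784952-55787920 (2969 bp), which lies almost wholly past the GENCODE 3′ end of Mab21l1 and holds the Nbea exon at chr3:55786441-55786577 and the internal Nbea start at 55786902.

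**Figure D1:**
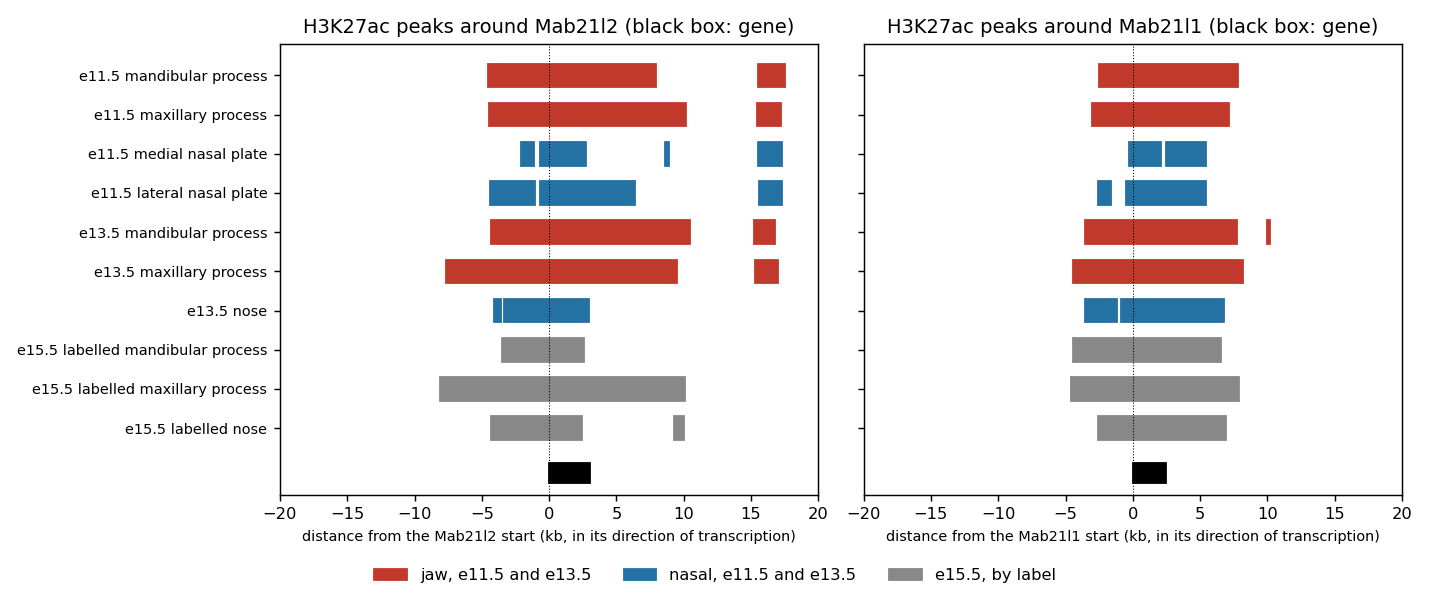
H3K27ac peaks of each library (bars) by distance from the start of Mab21l2 (left) and Mab21l1 (right) in kb, along the direction of transcription, with the gene as a black box and libraries coloured as jaw, nasal or e15.5 by label. The jaw peaks reach 7.15 kb or more past both starts, and the nasal peaks over the genes end sooner on both sides.

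**Figure D2:**
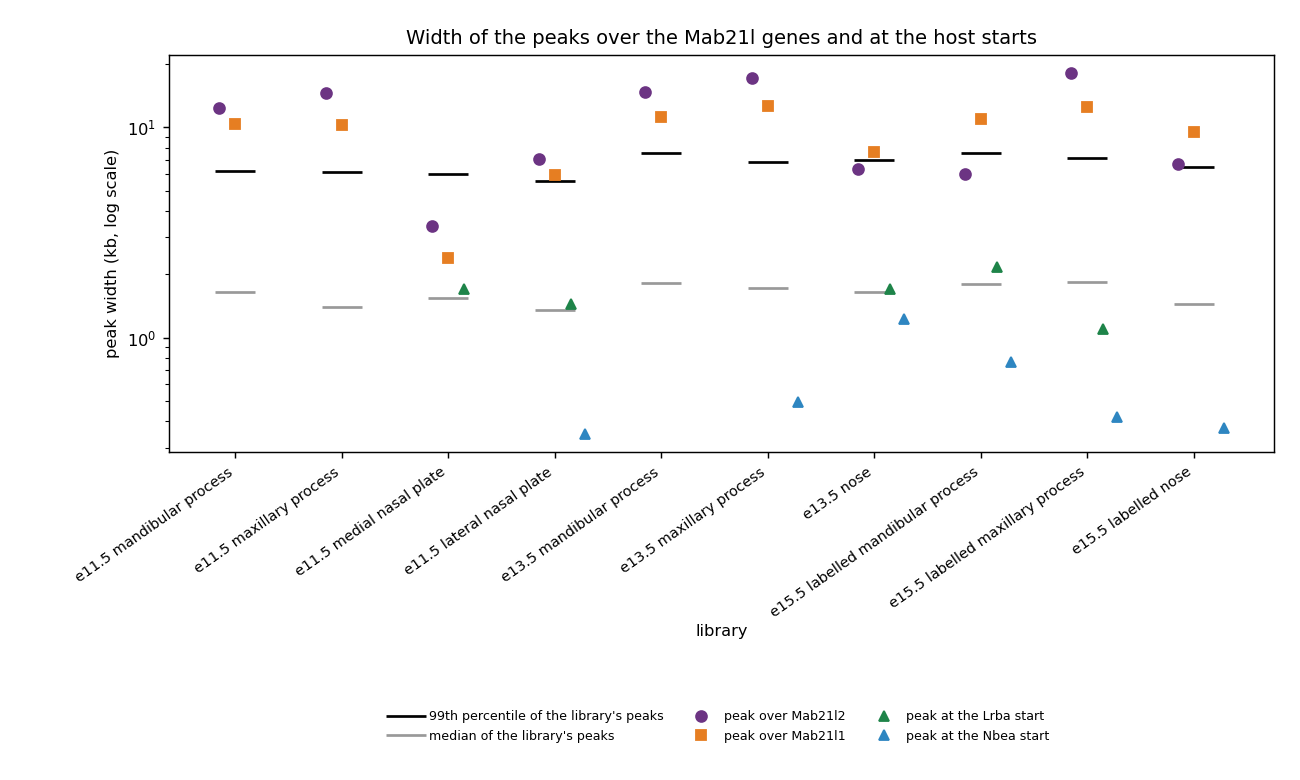
Width in kb on a log scale (y axis) of the peak over Mab21l2 (circles), over Mab21l1 (squares), at the Lrba start and at the Nbea start (triangles, drawn only where a peak was called) in each of 10 libraries (x axis), with the median and the 99th percentile of all peaks of that library as dashes. The Mab21l1 peak lies above the 99th percentile in 9 libraries and the Mab21l2 peak in 7, while the peaks at the host starts lie below that percentile in every library.

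The starts of the host genes were covered in fewer libraries and by narrow peaks. The Lrba start, within 1 kb, lay under a peak of 1698 bp in the e13.5 nose, 1713 bp in the medial nasal plate and 1453 bp in the lateral one. At e15.5 it lay under one of 2168 bp in the library labelled mandibular process and 1095 bp in that labelled maxillary process. In the 4 jaw libraries and the e15.5 library labelled nose no peak was called there, so the Lrba start was covered in 5 of 10 libraries, among them all 3 nasal and none of the 4 jaw libraries. The Nbea start lay under a peak in 6 libraries, 347 bp wide in the e11.5 lateral nasal plate, 493 bp in the e13.5 maxillary process, 1232 bp in the e13.5 nose, and 769, 420 and 373 bp in the e15.5 libraries labelled mandibular process, maxillary process and nose. A start with no called peak may still carry signal below the threshold of the list.

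Nested genes with a covered start and an uncovered host start were not rare. Among 739 protein-coding genes that lie within a longer one and start over 10 kb from its start, the nested start and not the host start was under a peak in 7.31% to 10.7% of pairs, by library. The nested start was covered in all 10 libraries in 49 of the 739 and in none in 473. The peak at the nested start was the wider of the pair in all 10 libraries in 33 pairs, Mab21l2 and Mab21l1 among them. By the widest peak at the nested start in any library, Mab21l2 (18205 bp) and Mab21l1 (12664 bp) were first and second of the 739, followed by Bend5 within Agbl4 (11236 bp), against a median of 2130 bp over those with a peak. Since width chose the genes, this order is a description.

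Most of the other peaks lay on the 3′ side of the hosts. Between the Lrba start and the Lrba 308 kb region the only peak was one of 273 bp in the e13.5 mandibular process, and between the Nbea start and a region 295 kb from it there were 2, of 352 bp in the e13.5 mandibular process and 325 bp in the medial nasal plate. Of the 19 Lrba regions, 13 were in introns or over internal exons, 4 in the flank past the 3′ end, 1 over Mab21l2 and 1 at the start. The 4 in the flank all lay within Dclk2. Of the 11 Nbea regions, 5 lay in the flank past the 3′ end, 4 in introns, 1 over Mab21l1 and 1 at the start. In the flanks the farthest peak inside the 50 kb limit lay 17.0 kb past Lrba and 36.7 kb past Nbea, and the nearest outside it lay 51.2 and 55.4 kb away. On the 5′ side the flanks held none, with the nearest peaks 74.5 kb before Lrba and 89.7 kb before Nbea.

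**Figure D3:**
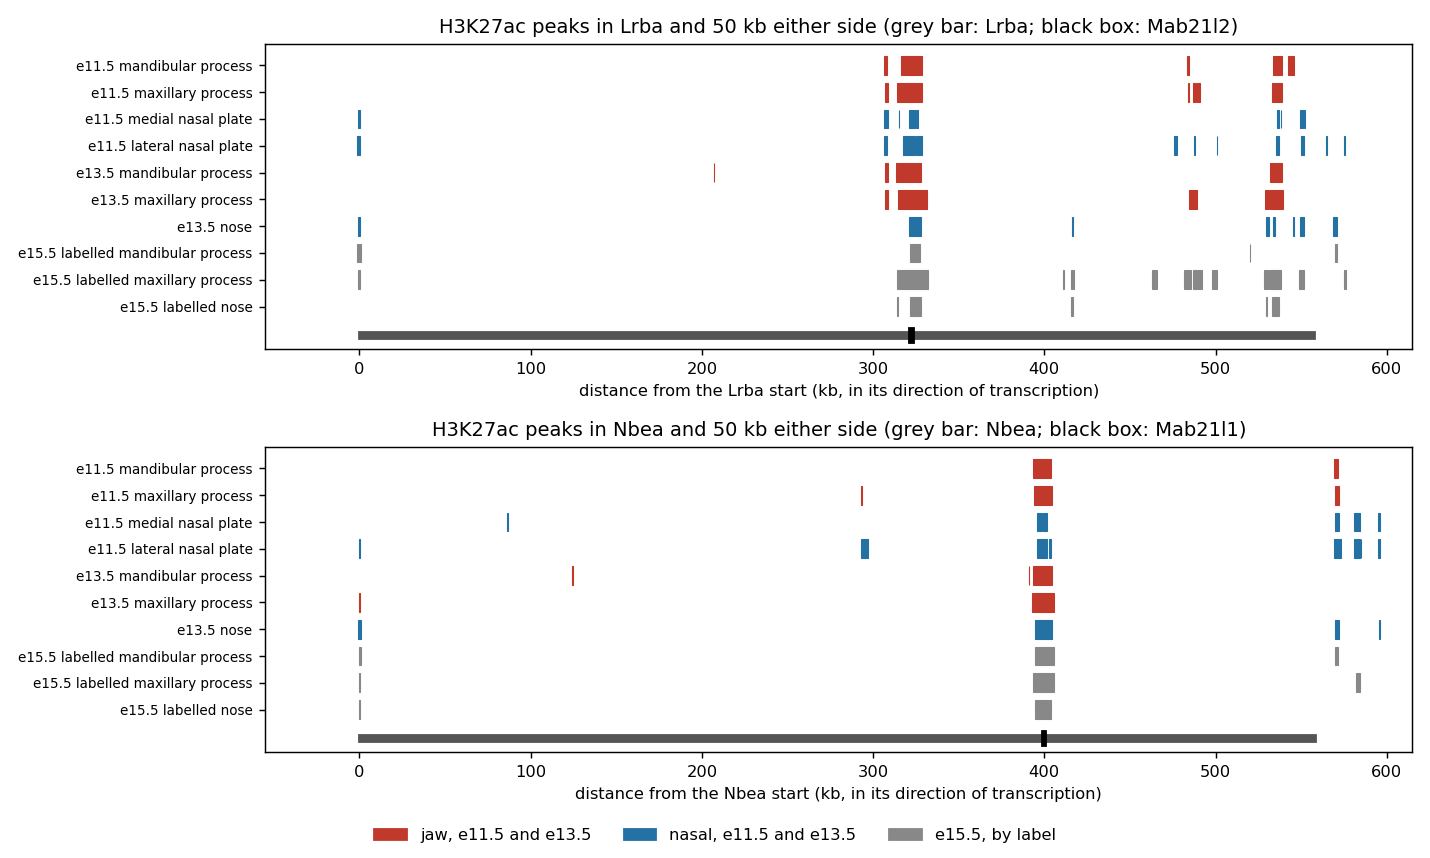
H3K27ac peaks of each library (bars) along Lrba (top) and Nbea (bottom) with 50 kb either side, by distance in kb from the start of the host in its direction of transcription. The grey bar is the host, the black box the Mab21l gene, which starts 324 kb into Lrba and 401 kb into Nbea, and most other peaks lie to the right of it or at the host start.

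In the Lrba window, 12 of 19 regions were found in 2 or more libraries and 5 in 5 or more. The Lrba 535 kb region (chr3:86756426-86763843) was found in 9 libraries, all but the e15.5 library labelled mandibular process. Its widest peak measured 5458 and 5825 bp in the e11.5 mandibular and maxillary processes, 7221 and 7410 bp in those of e13.5, and 897 bp in the e13.5 nose, 1025 bp in the medial nasal plate and 1711 bp in the lateral one, so that the jaw and nasal libraries did not overlap there. The widest peak of every jaw library was wider than that of every nasal library in 0.026% of all regions (11 of 42346), and the regions over Mab21l2 and Mab21l1 and the Lrba 535 kb region were 3 of those 11. Most peaks of the Lrba 535 kb region had q-values near the limit of their lists. At e11.5 their −log10 q was 1.96 and 1.4 in the mandibular and maxillary processes, and at e13.5 it was 1.93 and 6.26. In nasal tissue the widest peak had 1.75 (medial), 1.96 (lateral) and 1.46 (e13.5 nose). With a stricter limit of 2, only the e13.5 maxillary process and the e15.5 library labelled maxillary process (7.8) kept a peak there. The separation by width thus rests on peaks that this limit removes. The region holds the Lrba exon at chr3:86757382-86757549. The Lrba 308 kb region (chr3:86531117-86533419), 16.4 kb downstream of the Mab21l2 start, was under peaks of 1590 to 1989 bp in all 4 libraries of e11.5 and in both jaw libraries of e13.5, and under none in the e13.5 nose or at e15.5. It holds an Lrba exon (chr3:86532085-86532209) and the last exons of Gm31677, the RNA that starts within the Mab21l2 domain. The e13.5 peaks of the Lrba 308 kb region had −log10 q of 1.73 (mandibular) and 1.69 (maxillary), below the limit of 2, and those of e11.5 had 2.88 to 3.91. The Lrba 551 kb region (chr3:86773652-86776791) was found in the 3 nasal libraries, with peaks of up to 1666, 1924 and 1797 bp, and in the e15.5 library labelled maxillary process with 2852 bp. The −log10 q of these peaks was 4.42 in the medial nasal plate, 1.77 in the lateral one, 1.86 in the e13.5 nose and 1.99 in that e15.5 library. With the limit of 2 only the medial nasal plate kept a peak there. With the Lrba start, the Lrba 551 kb region was one of 2 Lrba regions found in all 3 nasal and no jaw library, and with the Nbea 595 kb region it made 3 of the 30 regions. Over the whole series 6.01% of the 42346 regions had that pattern and the nasal lists were the longer ones. A peak in all 4 jaw and no nasal library was found in 0 of the 30 and in 0.0% of all regions (0 of 42346).

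Of the 11 Nbea regions, 6 were in 2 or more libraries and 3 in 5 or more. The Nbea 571 kb region (chr3:55611685-55614605) lies past the Nbea 3′ end and was found in 6 libraries. Ranked by q-value within its own list, its peak was in the top 31.3% in the e13.5 nose, 21.6% in the medial nasal plate and 16.4% in the lateral one. It was in the top 67.6% in the e11.5 mandibular process, 74.6% in the e11.5 maxillary process and 78.2% in the e15.5 library labelled mandibular process. The Nbea 595 kb region (chr3:55587559-55588870) was found in the 3 nasal libraries only, with peaks of 903, 1312 and 907 bp. A further region at chr3:55599302-55602905 was found in the medial and lateral nasal plates (3435 and 3604 bp) and in the e15.5 library labelled maxillary process (1997 bp). In the medial nasal plate that peak was wider than the one over Mab21l1 (2398 bp), the 1 library of 10 in which the widest peak of the Nbea window did not cover Mab21l1. In the Lrba window the widest peak covered Mab21l2 in all 10.

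To compare tissues and stages, the percent of the 20 kb around each start (10 kb either side) that lay under a peak was taken in each library. For Mab21l2 it was 62.1% in the e11.5 mandibular process, 72.3% in the maxillary process, 22.9% in the medial nasal plate and 52.1% in the lateral nasal plate. At e13.5 it was 71.5% in the mandibular process, 85.9% in the maxillary process and 34.3% in the nose, and at e15.5 it was 30.1%, 90.6% and 37.1% in the libraries labelled mandibular process, maxillary process and nose. Within e11.5 and within e13.5, each jaw library was thus above each nasal library. For Mab21l1 the values were 51.7%, 51.1%, 26.8% and 34.3% in the same order at e11.5, 56.4%, 63.3% and 49.9% at e13.5, and 54.8%, 62.5% and 47.4% at e15.5, again with each jaw library above each nasal one. Around the Lrba start the 3 nasal libraries had 8.56%, 7.26% and 8.49% and the 4 jaw libraries 0%, and around the Nbea start no library was above 6.16%.

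The first comparison asks whether acetylation around these genes differed between nasal and jaw tissue at e11.5 and e13.5. Mab21l2 was covered over 73.0% ± 9.82 (SD, n = 4) of the 20 kb in jaw and 36.4% ± 14.7 (SD, n = 3) in nasal libraries, a difference of -36.5 percentage points, nasal minus jaw. Mab21l1 was covered over 55.6% ± 5.66 (SD, n = 4) in jaw and 37.0% ± 11.8 (SD, n = 3) in nasal libraries, a difference of -18.6 points. The nasal lists were longer and covered more of the genome, and on this scale 932 of 13025 start windows had a lower nasal than jaw mean, with a median difference of 3.41 points over all of them. Every jaw library stood above every nasal library in 0.0461% of those windows (6 of 13025). They were those of Mab21l2 (-36.5 points), Mab21l1 (-18.6), Lhx8 (-33.5), Coq7 (-1.12), Kdelc2 (-1.66) and Lnpep (-1.82), named here after their values were seen. Over the gene body and 50 kb flanks, every jaw library stood above every nasal library for Lrba and in 0.0286% of 17461 genes. These were 5 genes, Lrba and both Mab21l genes among them, and the flanked Mab21l windows lie within those of the hosts. Lrba and its flanks were covered over 4.11% ± 0.690 (SD, n = 4) in jaw and 2.47% ± 0.695 (SD, n = 3) in nasal libraries.

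Coverage was also expressed as relative coverage, the percent of a window under a peak divided by the percent of chromosomes 1 to 19, X and Y under a peak in the same library. On this scale Mab21l2 stood at 136 ± 36.9 (SD, n = 4) in jaw and 26.2 ± 13.9 (SD, n = 3) in nasal libraries, 5.19 times higher in jaw, and Mab21l1 at 103 ± 22.6 (SD, n = 4) and 25.3 ± 4.15 (SD, n = 3), 4.08 times higher in jaw. Since coverage follows the widths by which these genes were chosen, no p is given for either. On this scale every jaw library stood above every nasal library in 21.8% of start windows, and over the 10 libraries it fell with the number of peaks in the list for Mab21l2 (r = -0.88, rho = -0.89) and Mab21l1 (r = -0.95, rho = -0.96). Taking the same number of peaks from each list gave differences of -108 for Mab21l2 and -80.3 for Mab21l1, against -110 and -77.9 with all peaks. That number was 6571, which left the e11.5 maxillary list whole and cut the nasal lists, of 20492 to 25941 peaks, the most. Such a cut can itself take away nasal coverage, and the part of list length in the difference was not tested. A window that was chosen for wide peaks also has more room to differ than most.

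The host starts went the other way or did not differ beyond their spread. Relative coverage at the Lrba start was 5.70 ± 0.939 (SD, n = 3) in nasal libraries and 0 in all 4 jaw libraries (exact permutation p = 0.0286, two-sided, the smallest that 35 assignments of region allow, adjusted p = 0.201), and every nasal library stood above every jaw library in 5.65% of start windows. The nasal lists were also the longer ones. With the same number of peaks from each list the difference was 4.32 (exact permutation p = 0.429), and the separation of the groups was lost. At the Nbea start it was 1.60 ± 1.71 (SD, n = 3) in nasal and 0.789 ± 1.58 (SD, n = 4) in jaw libraries, and the groups overlapped (exact permutation p = 0.543). With Benjamini-Hochberg adjustment over all 13025 start windows this exact test called 0 genes at 0.05, with 1852 at an unadjusted p of 0.05 or less. With no p below 0.0286 possible, this design cannot pass the threshold over all genes, so the 0 says nothing about any of them. Over gene body and flanks, Lrba stood at 7.60 ± 1.88 (SD, n = 4) in jaw and 1.76 ± 0.690 (SD, n = 3) in nasal libraries, and every jaw library stood above every nasal one in 19.5% of genes. Nbea stood at 3.63 ± 1.07 (SD, n = 4) and 1.71 ± 0.692 (SD, n = 3), and without division by genome coverage its sign turned, with 1.93% ± 0.0873 (SD, n = 4) covered in jaw and a mean of 2.37% in nasal libraries (1.88% to 3.07%, n = 3).

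**Figure D4:**
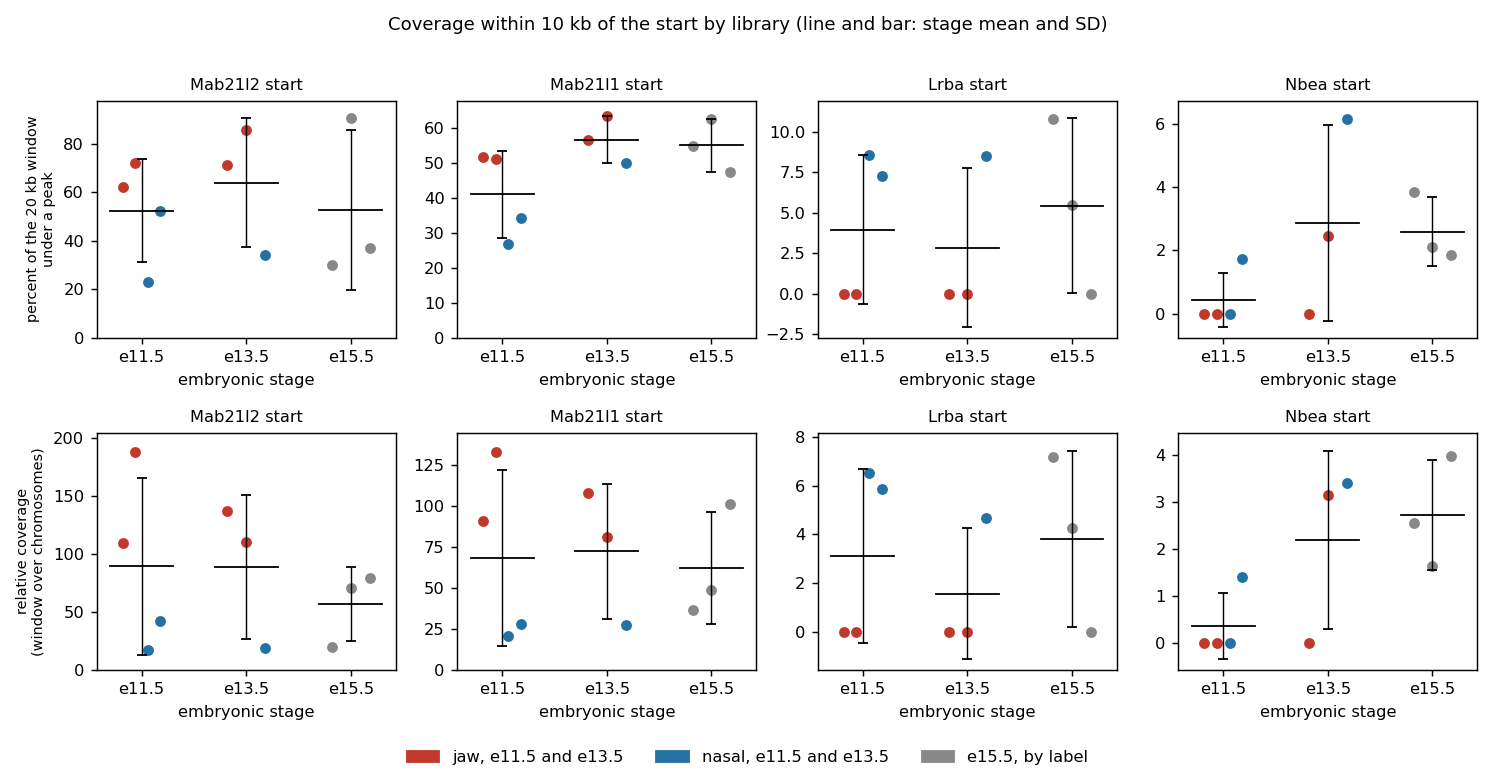
Percent of the 20 kb around each start under a peak (top) and relative coverage (bottom), on the y axes, by embryonic stage (x axis) for the Mab21l2, Mab21l1, Lrba and Nbea starts. Points are libraries and the line and bar are the stage mean and SD (n = 4, 3 and 3). Jaw points lie above nasal points at both Mab21l genes on both scales, and at 0 at the Lrba start.

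The second comparison asks whether coverage changed from e11.5 to e15.5. Relative coverage at Mab21l2 was 89.1 ± 76.3 (SD, n = 4) at e11.5, 88.7 ± 62.0 (SD, n = 3) at e13.5 and 56.6 ± 31.9 (SD, n = 3) at e15.5, and at Mab21l1 it was 67.9 ± 53.4 (SD, n = 4), 72.3 ± 41.1 (SD, n = 3) and 62.0 ± 34.2 (SD, n = 3). The slopes were -7.79 and -1.31 per day, and the stage means differed by less than the SD between tissues at e11.5 or at e13.5. In percent covered, both mandibular and maxillary processes were higher at e13.5 than at e11.5 at each Mab21l gene. The e13.5 nose was above both nasal plates at Mab21l1 and between them at Mab21l2. In relative coverage the maxillary process fell instead, from 188 to 110 at Mab21l2 and from 133 to 81.0 at Mab21l1. The mandibular process rose on that scale too, from 109 to 137 and from 90.8 to 108. The nose lay between the nasal plates at both genes on that scale. At the Nbea start the mean rose from 0.352 ± 0.703 (SD, n = 4) through 2.19 ± 1.90 (SD, n = 3) to 2.72 ± 1.17 (SD, n = 3), a slope of 0.606 per day with an exact permutation p of 0.0417 over 4200 assignments of stage and an adjusted p of 0.762. Unadjusted values of 0.05 or less were found in 5.81% of 13505 start windows, and none passed after adjustment. The slope of the Lrba start was 0.139 per day (exact permutation p = 0.833). Those of Lrba and Nbea with flanks were -0.356 and -0.256 per day, where 10.7% of 17846 gene bodies had an unadjusted p of 0.05 or less. The presence of a peak at the Nbea start in 1 of 4 libraries at e11.5, 2 of 3 at e13.5 and 3 of 3 at e15.5 is the same observation in counts.

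Coverage at the 2 Mab21l genes moved together. Over the 10 libraries relative coverage of Mab21l1 and Mab21l2 had r = 0.94 and rho = 0.94, and the percent covered r = 0.68 and rho = 0.71, with list length shared by both. In the e15.5 library labelled mandibular process they stood apart, with 30.1% at Mab21l2 and 54.8% at Mab21l1. Mab21l2 and the Lrba start had r = -0.85 and rho = -0.87 on the relative scale and r = -0.60 and rho = -0.68 in percent, and Mab21l1 and the Nbea start r = -0.22 and 0.23, respectively, all given as a description. Among 9584 genes outside the windows with a peak near the start in at least 5 libraries, those most like Mab21l2 over the 10 libraries were Ccnd2 (r = 0.986), Lhx8 (0.979), Mcm9 (0.976), Ufl1 (0.974) and Snrpa (0.973), against a median r of 0.09. Those most like Mab21l1 were Hnrnpa2b1 and Cbx3 (both 0.991), 1700028J19Rik and 2410002F23Rik (both 0.990) and Rcn2 (0.989), and each of these 2 pairs had equal values in every summary. Of these 10 genes only Lhx8, a LIM homeobox gene, was at 0 in a library and reached a level like that of Mab21l2. Its highest relative coverage was 142 against 188. The r values for these genes are on the relative scale, where all genes of a library share the divisor. The length of the lists thus enters each of them, and how much of the likeness it makes was not tested.

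Neither family was covered as a whole. Of the MAB21 family, the starts of Mab21l3, 2310007B03Rik (Mab21l4) and Cgas, the cytosolic DNA sensor, were under a peak in 0 of 10 libraries, against 10 of 10 for Mab21l1 and Mab21l2. Of the 8 BEACH domain genes looked up, Nbeal1 was covered at its start in 10 libraries, Wdfy3, an autophagy adaptor, in 9, Nsmaf in 7, Nbea in 6, Lrba and Lyst, the gene of the beige mutation, in 5 each, Nbeal2 in 1 and Wdfy4 in 0. The widest peak at any of these BEACH starts was the single one at Nbeal2 with 3615 bp, followed by 3514 bp at Wdfy3, while the peaks over Mab21l2 ranged from 3395 to 18205 bp. In each of the 10 libraries the peak over the Mab21l gene was wider than any at the 5′ end of its host.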

How the data were processed

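Tissue of wild-type embryos was crosslinked and precipitated with an H3K27ac antibody. MACS2 2.2.4, BWA 0.7.7 and SAMtools 0.1.19 are listed in the submitters' processing notes with build mm10, and the study's methods, written for its human data, describe broad calls at a q-value limit. The deposited broad peak lists, called per sample, give positions, a score, a fold enrichment over background and −log10 of the p-value and q-value, all computed by the authors. The scores were not used, and fold and −log10 q only ranked or filtered peaks within a list. The 10 input samples were not analysed here. Depth was unknown, so no interval for counting error is given.

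Only the autosomes, X and Y were used, which left 144852 of 144896 peaks, none of them beyond its GRCm38 chromosome (208 of 208 checked). Genes came from GENCODE vM21 (21938 protein-coding). Overlapping peaks were merged, and 1 bp of overlap counted as presence. Relative coverage was tested over all protein-coding genes covered in at least 1 library by exact two-sided permutation, of the slope over embryonic day (4200 assignments) and of nasal minus jaw (35), with Benjamini-Hochberg adjustment and a threshold of 0.05. A p is given only for the host starts, since the Mab21l windows were chosen by peak width. Libraries of a stage were different tissues, so p-values measure the spread between tissues. Named genes were the 4 genes, the 2 families, the markers, and the 5 genes most correlated with each Mab21l gene. Members and lists were chosen with earlier results of these data known. Alternatives were a stricter q, equal list lengths, percent covered, other windows, merging within 1 kb, a 50% overlap, e15.5 by label, leaving out each library and, added after seeing the data, terms for stage or tissue. Procedures were tested on simulated data. Scripts ran in Python 3.11.15 with pandas 2.3.3, numpy 2.4.6, matplotlib 3.10.9 and scipy 1.17.1.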

Additional observations from a re-analysis of the deposited data

Results flagged for a closer look

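Of 6 windows tested at e11.5, the stage with 4 libraries, the Nbea start had 1 library far from the others. Its relative coverage was 1.41 in the lateral nasal plate, from a single peak of 347 bp, and 0 in the other 3 libraries. The rule for a sample far from its group flags about 1 group in 20 by chance. That rate was not checked for groups in which most values are 0, as here.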

How the results depend on the processing

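The labels give no replicate numbers that pair libraries. With a term for stage, chosen after seeing the data, the nasal minus jaw differences were -113 for Mab21l2, -79.4 for Mab21l1 and 5.6 for the Lrba start, where 18 assignments allow no exact p below 0.0556. With a term for tissue at e11.5 and e13.5, also added, the slope of the Lrba start turned to -0.305. No adjusted p of a host start passed 0.05 under any setting. For nasal minus jaw without e15.5 the few assignments could not give one over all genes. The nasal minus jaw differences of Mab21l2, Mab21l1, the Lrba start and Lrba with flanks kept their sign under every alternative. For the Lrba start the groups no longer separated with equal lists (4.32, exact permutation p = 0.429) or with e15.5 by label (2.37, p = 0.286). Other signs turned, and for the Mab21l1 slope the turned value with equal lists was larger in size than the main one of -1.31. For the slopes, Mab21l1 gave 0.752 with the stricter q, 6.42 with equal lists and 3.67 in percent covered, Mab21l2 0.308 and Lrba with flanks 0.145 in percent covered. Leaving out 1 library gave slopes of -14.1 to 0.0824 for Mab21l2, -5.42 to 3.92 for Mab21l1, -0.305 to 0.487 for the Lrba start and -0.688 to 0.0668 for Lrba with flanks. The sign turned without the e11.5 maxillary process for all 4, and also without the e11.5 mandibular process or the e15.5 library labelled mandibular process for Mab21l1 and the Lrba start, and without that labelled maxillary process for Mab21l1. For nasal minus jaw, the Nbea start gave -1.16 with equal lists and -0.0853 to 1.62 leaving out 1 library, negative without the e13.5 nose, and Nbea with flanks 0.446 in percent covered. With e15.5 added by label, labels that the Hand2 and Pax7 peaks did not follow, the Mab21l2 difference was -66.4 and that of Mab21l1 -38.9. The cause was not tested. Region counts followed the peaks kept. The Lrba window fell to 10 regions with equal lists, and its 61 region and library pairs to 35 with the stricter q and 29 with equal lists. The Nbea window fell to 7 regions with the stricter q, 6 with equal lists and 6 without flanks, and its 35 pairs to 18 with equal lists and 21 without flanks. The widest peak of the window covered Mab21l2, and in the other window Mab21l1, in 9 or 10 of the 10 libraries in each setting that kept all libraries. A peak that was not called may lie below the depth of its list.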
